A study of Mus musculus with 12 samples.

Results

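Irf4, Prdm1, Gata3 and Rora encode 4 transcription factors of effector regulatory T (Treg) cells, and FoxP3 binding was followed across the stretch of chromosome around each of them. The members were all FoxP3 peaks whose summit lay in 1 of 4 windows of the mouse genome build mm9: chr13:30800000-30900000 for Irf4 (100 kb), chr10:44100000-44320000 for Prdm1 (220 kb), chr2:9740000-9850000 for Gata3 (110 kb) and chr9:68450000-69300000 for Rora (850 kb). Overlapping peaks from the 6 lists (1 bp sufficed) were counted as a single region, which gave 48 regions in the windows of 24765 in the genome. Irf4 had 12 of these regions, Prdm1 9, Gata3 7 and Rora 20.

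The study mapped FoxP3 by chromatin immunoprecipitation and sequencing in CD4+ hCD2+ Treg cells from lymph nodes and spleen of C57BL/6J mice, and asks where FoxP3 with the substitution A384T binds relative to wild-type FoxP3. The A384T group comprised 3 ChIP libraries from FoxP3A384T:hCD2 mice and the WT group 3 ChIP libraries from FoxP3WT:hCD2 mice. Both lines carry a human CD2 reporter at FoxP3, by which the cells were magnetically sorted, and the cells were freshly isolated and untreated. About 10000000 cells went into each reaction, and an in-house rabbit antibody against FoxP3 was used. Age, sex and the number of animals are not given in the sources used here, nor whether replicates came from separate animals, so p-values here reflect spread among libraries that may be of technical origin only. The label Treg cell cannot be checked against marker expression in a peak list.

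FoxP3 is the forkhead transcription factor that defines Treg cells, and A384T lies in its DNA-binding forkhead domain. Treg cells stimulated through the antigen receptor can become effector Treg cells, which leave lymphoid organs for tissues. IRF4, an interferon regulatory factor induced by antigen receptor signals, is needed for that step and acts upstream of Blimp-1, the zinc finger repressor encoded by Prdm1, which marks effector Treg cells that make interleukin 10. GATA3, the zinc finger factor of T helper 2 cells, is also found in Treg cells of barrier tissues, and the nuclear receptor RORα, encoded by Rora, is known from type 2 innate lymphoid cells and skin Treg cells.

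The gene table used here is of the assembly GRCm38.p6 and not of mm9, so peaks are given by mm9 position only and no peak was placed in a promoter, exon or intron. In that table the nearest protein-coding genes in gene order are Dusp22 and Exoc2 for Irf4, Atg5 and Prep for Prdm1, Celf2 and Taf3 for Gata3, and Vps13c and Ice2 for Rora. A peak in a window can therefore lie nearer to such a neighbour, and which gene it acts on was not tested. RefSeq promoters in GRCm38.p6, from 250 bases before to 50 after the start, were found for all 4 genes and searched on both strands for the forkhead motifs TGTTTAC and TGTTTGC. Of the 4 promoters only that of Prdm1 held either, and it held both, each on the opposite strand (GTAAACA and GCAAACA). Among all 32851 RefSeq promoters listed, 8.48% held either motif, 3.65% held TGTTTAC, 5.07% held TGTTTGC and 0.237% held both. The Prdm1 promoter (GRCm38.p6, chr10:44458699-44458998, minus strand) is shown because Prdm1 also had the best ranked of the 4 FoxP3 regions found in all libraries. Capitals mark the motifs, and no peak was set against this sequence because the builds differ.
Prdm1 promoter: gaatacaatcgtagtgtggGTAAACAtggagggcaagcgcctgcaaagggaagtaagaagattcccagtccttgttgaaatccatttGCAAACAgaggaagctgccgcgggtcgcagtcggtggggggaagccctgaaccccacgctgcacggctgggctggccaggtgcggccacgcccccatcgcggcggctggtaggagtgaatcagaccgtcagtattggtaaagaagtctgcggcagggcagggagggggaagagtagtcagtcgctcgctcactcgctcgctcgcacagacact

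The lists differed strongly in length, which bears on every count below. A384T replicates 1, 2 and 3 had 18147, 6657 and 2050 peaks on the standard chromosomes and 18255500, 22402648 and 24493840 unique ChIP tags. WT replicates 1, 2 and 3 had 20723, 1746 and 3905 peaks and 17520951, 25386770 and 21752899 unique tags. Tag length was 51 bp in both replicate 1 libraries and 49 bp elsewhere. Fold enrichment over control and -log10 q are the authors' own values per peak and are used only to describe and rank peaks within a list. A percentile is the share of the peaks of a list with the same or a lower -log10 q.

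Every library of both genotypes had at least 1 FoxP3 peak in each of the 4 windows. The 4 windows together held 34, 16 and 5 peaks in A384T replicates 1, 2 and 3, against 44, 4 and 12 in WT replicates 1, 2 and 3. As a share of the list this was 0.187, 0.240 and 0.244% for A384T and 0.212, 0.229 and 0.307% for WT, and the groups overlapped. The means were 0.224 ± 0.0317% for A384T and 0.2496 ± 0.0507% for WT (SD, n = 3 each). The difference of -0.0257 points was smaller than the spread among replicates (p = 0.6, exact permutation, two-sided; 3 against 3 cannot go below 0.1). It was -0.0261 points among the 49 bp libraries and -0.02497 between the 51 bp libraries, turned to 0.00316 without WT replicate 3, and was 0.0764 with lists of equal length (the top 1746 of each). Peaks per 100 kb were 2.74 to 3.56 times the average of their list over the mappable genome in A384T and 3.10 to 4.49 times in WT. The windows were chosen with earlier results of these data known, so a density above that average only describes the choice.

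**Figure D1:**
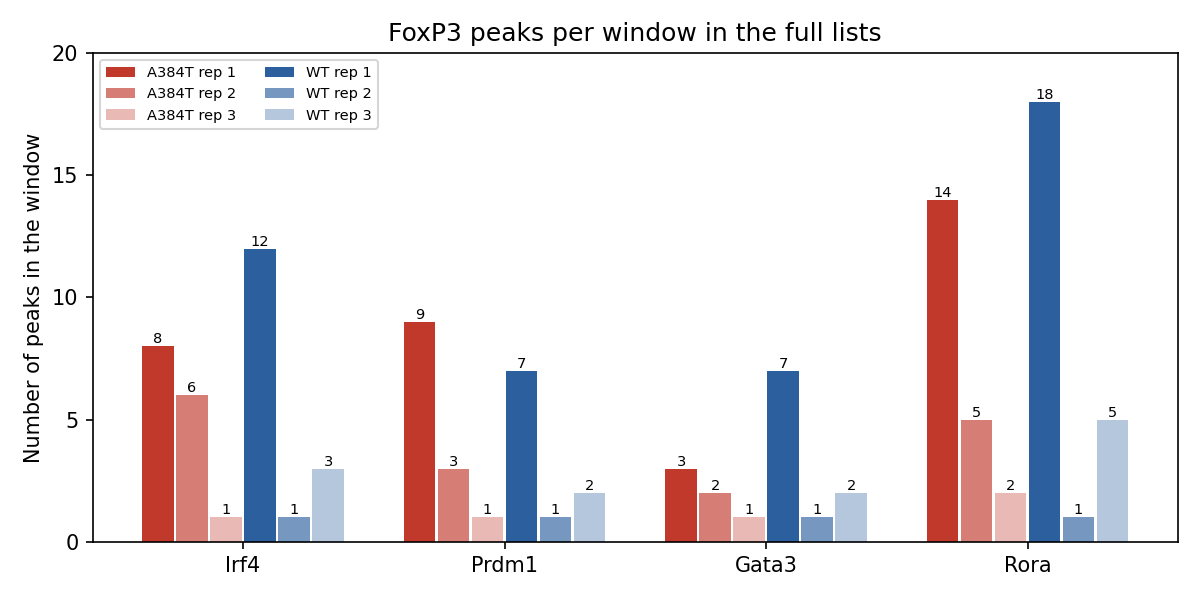
Number of FoxP3 peaks in each window (y axis) by gene (x axis) in the full list of each library, with A384T libraries in red and WT libraries in blue; each bar is 1 library and carries its count. In both genotypes replicate 1 had the most peaks in every window, and every library had at least 1 peak in each.

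The Irf4 window was the most densely bound over its full width. That order depends on how wide each window was drawn. The 12 Irf4 regions spanned 59.2 kb of 100 kb, and the 7 Gata3 regions only 16.8 kb of 110 kb. It held 8, 6 and 1 peaks in A384T replicates 1, 2 and 3, against 12, 1 and 3 in WT replicates 1, 2 and 3. Per 100 kb this was 8.24 to 16.9 times the average of the list in A384T and 10.7 to 14.4 times in WT. Rora, the longest window, was the least dense, at 1.65 to 2.15 times in A384T and 1.26 to 2.82 times in WT. Prdm1 held 9, 3 and 1 peaks in A384T, against 7, 1 and 2 in WT, and Gata3 held 3, 2 and 1 in A384T, against 7, 1 and 2 in WT. Rora held 14, 5 and 2 peaks in A384T, against 18, 1 and 5 in WT.

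With lists of equal length, no window had a number of peaks that separated the genotypes. Among the 1746 strongest peaks of each list, Irf4 had 0, 4 and 1 peaks in A384T replicates 1, 2 and 3, against 2, 1 and 1 in WT replicates 1, 2 and 3. Rora had 1, 3 and 2 in A384T, against 2, 1 and 1 in WT. Prdm1 had 1 in every library, and Gata3 had 1 in each except WT replicate 3, which had 0. The differences were 0.333 peaks for Irf4, 0 for Prdm1, 0.333 for Gata3 and 0.667 for Rora, with two-sided exact permutation p of 1, 1, 1 and 0.7 and a Benjamini-Hochberg adjusted p of 1 for each of the 4. Within the 49 bp libraries Rora averaged 2.5 peaks in A384T and 1 in WT (2 libraries each; exact permutation p = 0.333, the smallest that 2 against 2 allows), while between the 51 bp libraries A384T had 1 and WT 2. The Rora difference was 0.167 without A384T replicate 2, 1.17 without A384T replicate 1 and -1 with full lists. The Irf4 difference turned to -0.833 without A384T replicate 2, to -0.333 with full lists and to -0.667 with the window widened by 50 kb, where 5, 5 and 1 further peaks lay in A384T and 6, 2 and 2 in WT in the full lists. The outermost summits inside the Irf4 window lay 25.1 and 15.6 kb from its edges, and the nearest outside lay 26.1 and 9.48 kb beyond them. No library had a peak in the 50 kb next to the Prdm1 or Gata3 window, and only WT replicate 1 had 1 next to the Rora window, 6.18 kb beyond its upper edge.

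Each of the 4 windows had exactly 1 region with a peak in all 6 libraries, and in Irf4, Prdm1 and Gata3 it had the highest -log10 q of the window in every list. By fold this held in every list for Prdm1 alone, since another region had a higher fold for Irf4 in A384T replicates 1 and 2 and for Gata3 in WT replicate 3. In A384T replicate 3 and WT replicate 2 the Irf4, Prdm1 and Gata3 windows each held only 1 peak. There the order was fixed. Over the genome 3.88% of regions had a peak in all 6, against 4 of the 48 here. Of the 48 regions, 31 had a peak in both genotypes (56% over the genome), 4 in A384T alone (17.2% over the genome) and 13 in WT alone (26.8%). A single library accounted for 16 of the 48, where the share over the genome was 42.4%. Of the 48, 31 were found only in 1 or both replicate 1 libraries, against 71.1% over the genome.

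**Figure D2:**
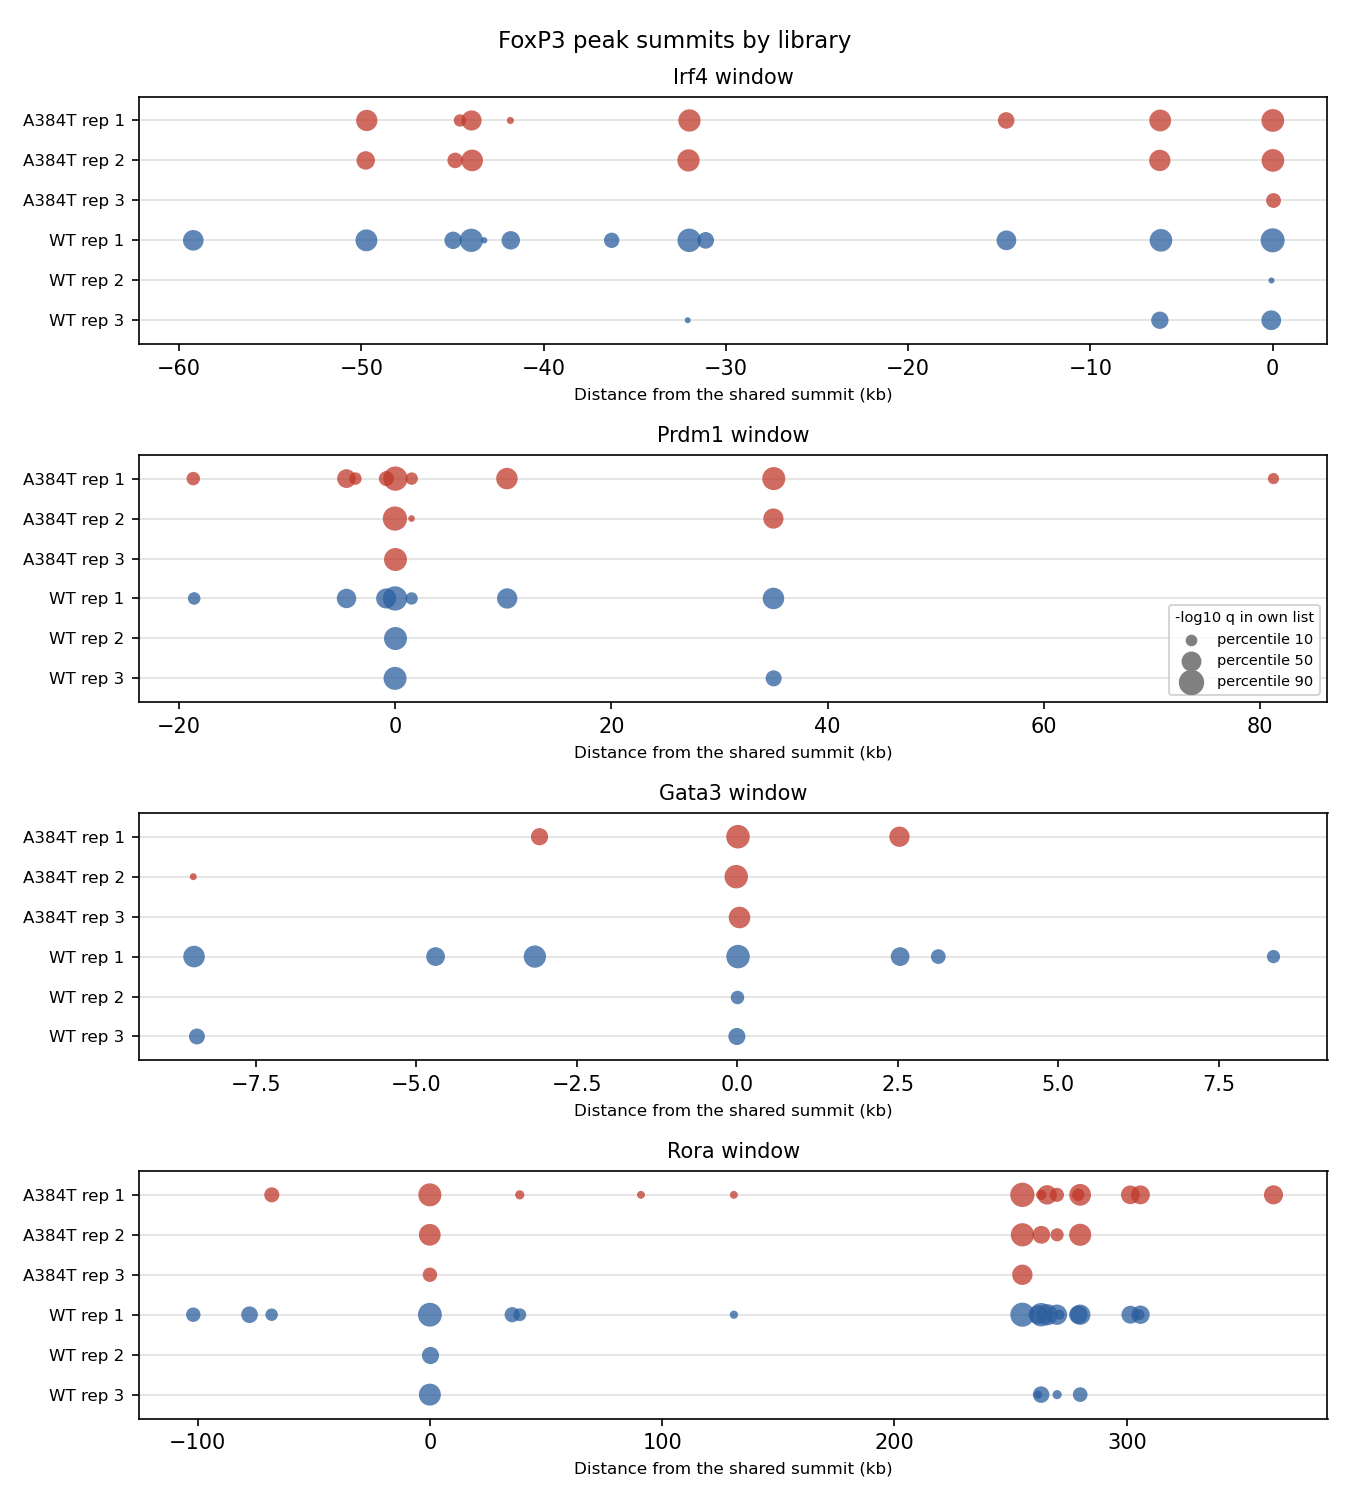
Summits of all FoxP3 peaks in the 4 windows, 1 panel per gene and 1 line per library (A384T red, WT blue), as distance in kb from the median summit of the region found in all 6 libraries; dot size grows with the percentile of -log10 q in its own list. Every line has a dot at 0, and the Rora panel shows 11 regions between 255 and 305.9 kb, where WT replicate 2 has none.

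The shared Prdm1 region, chr10:44167923-44168444, had the highest list percentile of the 4 shared regions in every library. Its fold enrichment was 47.6, 31.5 and 12.4 in A384T replicates 1, 2 and 3, against 41.3, 18.3 and 16.97 in WT replicates 1, 2 and 3. It stood at the 98.3, 98.0 and 87.3 percentile of the A384T lists and at the 98.6, 87.7 and 87.7 percentile of the WT lists, so it was high in every library and the groups overlapped. In order of -log10 q it was peak 304, 131 and 260 in A384T and peak 296, 216 and 478 in WT. Its summits lay within 50 bp of each other, and the median over the 962 regions shared by all libraries was 53 bp. With lists of 1746 peaks it was the only one of the 4 shared regions still present in all 6.

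Around this summit the Prdm1 peaks were close together and mostly seen in the long lists. Regions with summits 0.808 kb to one side and 1.53 kb to the other were found in both replicate 1 libraries, and the second also in A384T replicate 2. A more distant region, chr10:44203022-44203260, was found in A384T replicates 1 and 2 and WT replicates 1 and 3, with folds of 22.9 and 15.7 in A384T and 16.7 and 11.8 in WT. The outermost region, chr10:44249294-44249450, appeared in A384T replicate 1 alone, with a fold of 7.35.

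The shared Irf4 region, chr13:30884058-30884621, varied most of the 4 in list percentile. Its fold was 16.4, 15.7 and 10.7 in A384T replicates 1, 2 and 3, against 44.98, 4.63 and 12.8 in WT replicates 1, 2 and 3. The list percentile was 85.9, 85.1 and 33.0 in A384T and 96.7, 0.344 and 62.8 in WT. WT replicate 2 thus had the region near its lower limit, as peak 1741 of 1746, and WT replicate 1 had it highest. The summits spread over 154 bp, where the middle 50% of the 962 shared regions spread over 35 to 84.8 bp. They lay at 30884360, 30884365 and 30884397 in A384T and at 30884350, 30884243 and 30884274 in WT, so WT replicates 2 and 3 had summits at lower positions than the other 4 libraries.

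This region was the last before the upper edge of the window, and the nearest summit outside lay 9.48 kb beyond that edge. Inside the window the other Irf4 regions lay to one side of the shared region, over 59.2 kb. A region at chr13:30878035-30878415, 6.18 kb away, had folds of 16.4 and 16.4 in A384T replicates 1 and 2, against 23.1 and 12.6 in WT replicates 1 and 3. A second, chr13:30852042-30852622, had folds of 20.6 and 18.7 in A384T replicates 1 and 2, against 23.1 and 5.16 in WT replicates 1 and 3. Its -log10 q in WT replicate 3 was 10.2, just past the authors' cutoff of 10. A further 3 regions, at chr13:30834196-30834867, chr13:30839217-30839966 and chr13:30840133-30840717, were found in A384T replicates 1 and 2 and in WT replicate 1 alone among the WT libraries. Regions in at least 2 A384T libraries and exactly 1 WT library numbered 5 of the 48, against 11.6% over the genome, and the reverse class numbered 1, against 2.06%.

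The shared Gata3 region, chr2:9797494-9797991, ranked higher in every A384T library than in any WT library when only the 962 shared regions were compared. Its rank percentile in that set was 41.9, 53.5 and 64.1 in A384T replicates 1, 2 and 3, against 15.9, 14.6 and 8.42 in WT replicates 1, 2 and 3. The means were 53.2 ± 11.1 in A384T and 12.96 ± 3.98 in WT (SD, n = 3 each), and the groups did not overlap. Of the shared regions 11.5% ranked higher in all A384T libraries in this way. On normal scores of the ranks the difference was 1.23 ± 0.385 (SE), with an unadjusted p of 0.00636 and an adjusted p of 0.106 in limma over 962 regions, which does not pass 0.05. With the replicate number as a block the adjusted p was 0.0578, and over the other alternatives it was 0.0694 to 0.480, always with A384T higher. By percentile of the full lists the groups overlapped, at 92.1, 91.3 and 76.4 in A384T and 91.8, 26.1 and 45.5 in WT. The fold of this region was 26.2, 18.6 and 13.4 in A384T and 27.7, 7.20 and 8.19 in WT. The replicate 1 libraries thus had nearly the same fold, and the 49 bp libraries of WT had the lowest folds. Its summits lay within 44 bp of each other.

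Of the 6 other Gata3 regions, all within 8.46 kb of this summit, 3 were found in WT replicate 1 alone and 2 in both replicate 1 libraries. The remaining one, chr2:9788859-9789456, had a fold of 7.11 in A384T replicate 2, against 19.01 and 11.6 in WT replicates 1 and 3. It stood at the 2.49 percentile in that A384T list, against the 76.4 and 38.7 percentile in the WT lists.

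**Figure D3:**
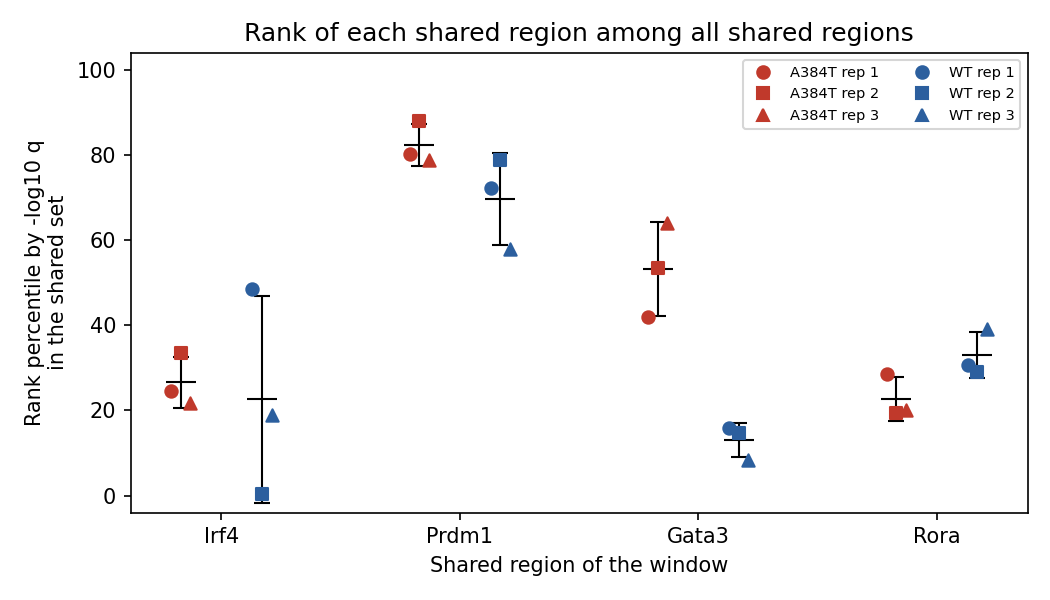
Rank percentile by -log10 q among the 962 regions shared by all libraries (y axis) for the shared region of each window (x axis), with A384T libraries in red and WT libraries in blue; points are libraries, horizontal lines means and error bars SD (n = 3). For Gata3 the A384T points lie between 41.9 and 64.1 and the WT points between 8.42 and 15.9.

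The ranks of the other 3 shared regions differed less. Prdm1 was at 82.4 ± 4.92 in A384T and 69.7 ± 10.8 in WT, Irf4 at 26.6 ± 6.07 in A384T and 22.6 ± 24.3 in WT, and Rora at 22.7 ± 5.10 in A384T and 32.99 ± 5.44 in WT (SD, n = 3 each). The Rora values did not overlap, with 28.6, 19.4 and 20.2 in A384T and 30.7, 29.1 and 39.2 in WT, and WT was higher, but the nearest values of the groups were 28.6 and 29.1. Of all shared regions 13.3% ranked higher in all WT libraries. In all, 2 of the 4 shared regions had ranks without overlap, against 24.8% of the 962. When the 962 shared regions were ranked by fold instead, the Rora ranks overlapped and the Gata3 ranks did not. In limma the adjusted p was 0.656 for Prdm1, 0.672 for Irf4 and 0.754 for Rora, with score differences of 0.41 ± 0.386, 0.57 ± 0.556 and -0.31 ± 0.376 (SE). None of the 4 passed an adjusted p of 0.05, and 1 of the 4, Gata3, had an unadjusted p below 0.05. Over all 962 regions 20 passed (2.08%), 15 of them with A384T higher (1.56%), and 164 had an unadjusted p below 0.05. With the replicate block 59 of the 962 passed and still none of the 4. The Irf4 difference turned to -0.17 without WT replicate 2.

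The shared Rora region, chr9:68882066-68882746, had folds of 25.4, 15.6 and 9.17 in A384T replicates 1, 2 and 3, against 30.2, 10.1 and 14.9 in WT replicates 1, 2 and 3. It was the only Rora peak in WT replicate 2 and the strongest in WT replicate 3. In all 3 A384T libraries and in WT replicate 1 another region, chr9:69137370-69137862, which lies 255 kb away, had the highest -log10 q of the window. Its fold was 38.0, 17.6 and 12.2 in A384T replicates 1, 2 and 3 and 29.0 in WT replicate 1, and WT replicates 2 and 3 had no peak there. By fold it was above the shared region in each A384T library but not in WT replicate 1. The list percentile was 98.9, 89.9 and 67.0 in A384T and 97.0 in WT replicate 1. Its 4 summits lay within 34 bp of each other.

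That pattern is common in these lists. Of the 1889 regions found throughout the A384T lists, 22.4% were matched by WT replicate 1 and by no other WT library. Among the 49 bp libraries alone, this Rora region was the only one of 17 regions in the windows with a peak in both A384T and no WT library, and none showed the reverse. Over the genome 6.59% of regions had the first pattern among the 49 bp libraries and 0.392% the second. Between the 51 bp libraries the region was present in both genotypes. Lack of a listed peak means only that the authors' cutoff was not reached, not that FoxP3 was absent.

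The same Rora region opens a row of 11 regions over 50.8 kb, from 69137370 to 69188547, picked out after the positions were seen. Of the other 9 regions 8 lay at lower positions and 1 at a higher one, and no library had a summit in the lowest 330.7 kb of the window. The row held 8, 4 and 1 peaks in A384T replicates 1, 2 and 3, against 11, 0 and 4 in WT replicates 1, 2 and 3. Within it chr9:69145549-69146154 had folds of 7.68 and 13.4 in A384T replicates 1 and 2, against 33.6 and 10.5 in WT replicates 1 and 3. The region chr9:69162334-69162686 had folds of 22.3 and 18.4 in A384T replicates 1 and 2, against 17.03 and 10.5 in WT replicates 1 and 3. At the first of these sites the groups overlapped and WT replicate 1 was highest, and at the second A384T replicate 1 was highest. Neither site had a peak in A384T replicate 3 or WT replicate 2. These folds belong to their own lists, and their differences have no test.

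Only 1 of the 48 regions was recurrent, with 2 or more libraries, in one genotype while lacking any peak in the other. It was the Rora region chr9:69144307-69144497, with folds of 16.3 and 7.42 in WT replicates 1 and 3, at the 57.1 and 5.95 percentile of those lists. Over the genome 0.872% of regions were in at least 2 WT libraries and no A384T library. The reverse class held 0 of the 48, against 0.763% over the genome. The single WT region was lost without WT replicate 1 or WT replicate 3, and without A384T replicate 2 the class held 2. No share of the WT class over the genome was taken with these libraries left out. Without WT replicate 1 the A384T class held 5 regions, out of those of the 48 that keep a peak in another library. Over the genome the same rule took in 16.7% of the 18419 regions that keep a peak.

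**Figure D4:**
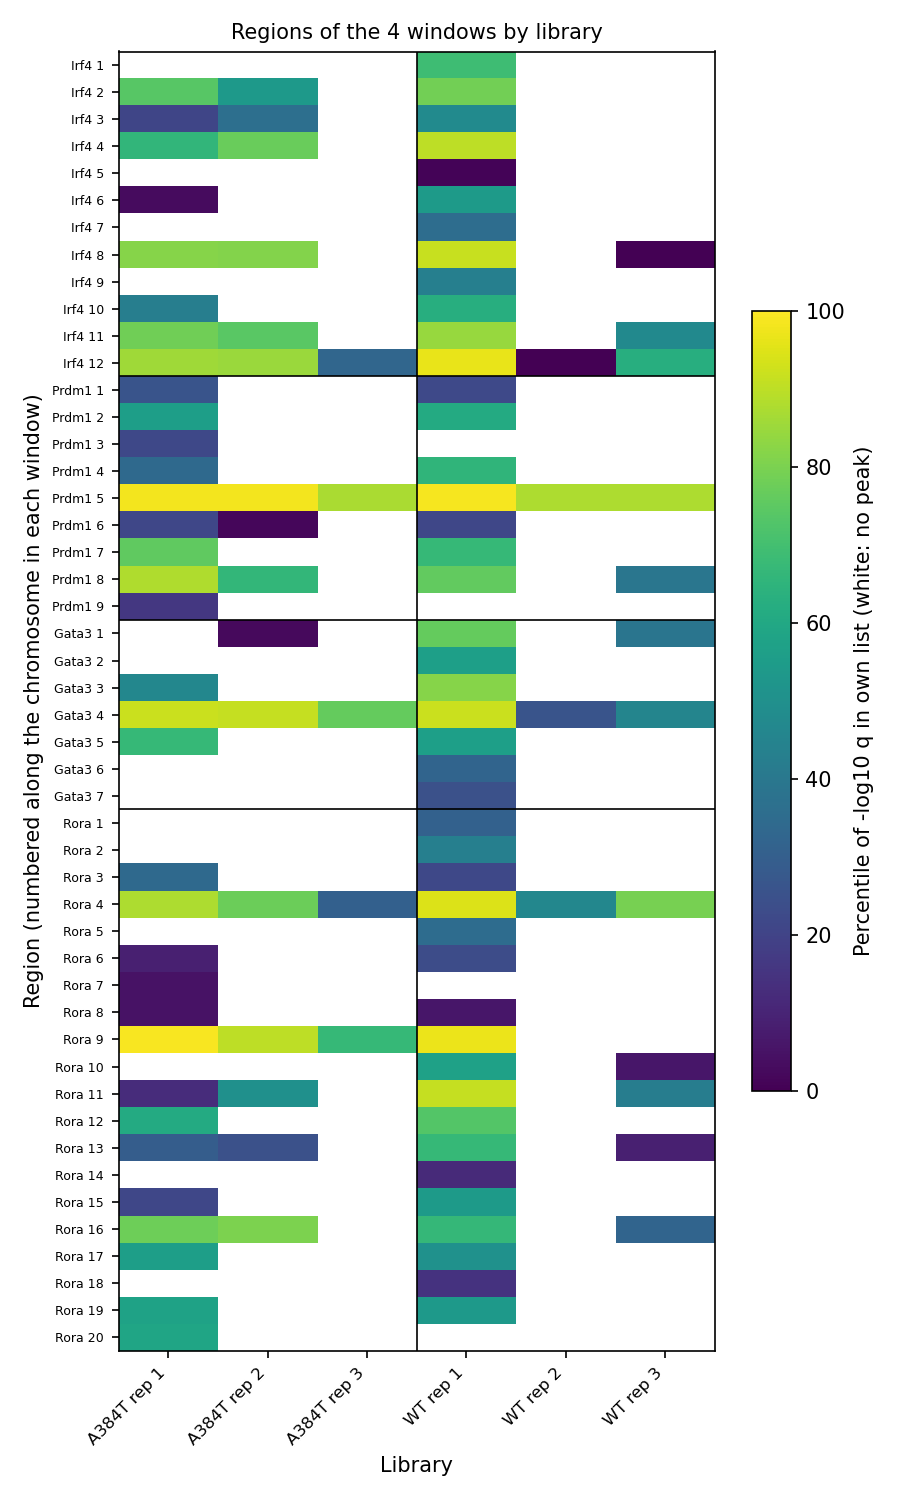
Percentile of -log10 q in its own list (colour, 0 to 100; white where the list has no peak) for the 48 regions of the 4 windows (rows, numbered along the chromosome) in each library (columns, A384T left of WT). Only 4 rows are filled in all 6 columns, and Rora 9, the region at 69137370, is filled in all A384T columns and in WT replicate 1.

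Most regions of the shorter lists were also in the long lists of either genotype. Of the 16 and 5 regions of A384T replicates 2 and 3, A384T replicate 1 held 15 and 5 (94.4 and 99.4% over the genome) and WT replicate 1 held all 16 and 5 (96.0 and 97.3% over the genome). Of the 4 and 12 regions of WT replicates 2 and 3, A384T replicate 1 held 4 and 10 (98.7 and 89.8% over the genome) and WT replicate 1 held all 4 and 12 (100 and 97.97% over the genome). The replicate 1 libraries shared 30 regions, out of 34 in A384T and 44 in WT, where over the genome 76.3% of the A384T regions and 66.4% of the WT regions were shared.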

How the data were processed

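Immunoprecipitated DNA from cells fixed for 30 min in 1% formaldehyde was sequenced, with 4 µg of antibody per reaction, per the labels. Bowtie2, MACS2 and the build mm9 are listed in the submitters' processing notes. Peaks were called per library with MACS 2.1.0.20140616 against 1 control library at a q-value cutoff of 1e-10, keeping 1 tag per position, per the file headers. The deposited lists give the pileup (a signal), the -log10 p and q, the fold enrichment (a ratio to local control) and positions. The 6 input libraries have no list of their own here.

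Peaks on unplaced sequences were dropped, the rest were joined and ranked, and normal scores of ranks in the shared set were fitted with limma 3.58.1 (R 4.3.3). Python 3.11.15, numpy 2.4.6, pandas 2.3.3, scipy 1.17.1 and matplotlib 3.10.9 were used. Density used the effective genome size of 1.87e9 in the headers. Joining and the limma fit were tested on simulated data.

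Genes and windows were chosen with earlier results of these data known. The named regions were those present in all 6 libraries, those recurrent (2 or more libraries) in one genotype and absent from the other, and the best-ranked of each window. The other regions, the Rora row and the counts for the 49 bp libraries alone were chosen after the values were seen. Same-numbered A384T and WT libraries deviated together from their group means over the 962 shared regions (r = 0.475, 0.130 and 0.378 for replicates 1, 2 and 3). The main tests nevertheless left the libraries unpaired, and the replicate number entered only as a block in an alternative. No genome or annotation of mm9 was used, and the planned list of other effector Treg genes was not analysed here.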

Additional observations from a re-analysis of the deposited data

How the results depend on the processing

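There were 156 alternative values for 14 results, 3 of them added after the data were seen. Of the 156, 132 were classed as the same, 13 moved and 11 changed sign. A difference was classed as the same if it kept its sign and its p stayed on the same side of 0.05. Counts were classed as the same if equal or close, such as 3 for 4 or 3 for 2. The exact tests of list share and of peaks per window cannot go below p = 0.1, so they could not cross 0.05. Where a cause is not given by the setting itself, the cause was not tested. The share of the list in the 4 windows differed by 0.0764 points with equal-length lists and by -0.0443 to 0.00316 with 1 library left out. Counts in equal-length lists were compared with full lists, which follow list length by construction and gave differences of -0.333 for Irf4, 1 for Prdm1, -1.33 for Gata3 and -1 for Rora. The 51 bp libraries alone gave -2 for Irf4, 0 for Gata3 and -1 for Rora. Widening the windows by 50 kb gave -0.667 for Irf4, and strength by fold gave 0 for Gata3. Leaving out 1 library gave -0.833 to 1.17 for Irf4, 0 to 0.5 for Gata3 and 0.167 to 1.17 for Rora. Regions in all 6 libraries numbered 1 with equal-length lists, and those restricted to WT 0. The A384T class held 0 to 5 and the WT class 0 to 2 with 1 library left out, and 1 and 0 in the 49 bp libraries alone. These counts have a share over the genome only without WT replicate 1 (A384T class, 16.7%) and in the 49 bp libraries (6.59 and 0.392%). Ranks by fold left 1 of the 2 regions without overlap, Gata3, and by pileup there were 3, with Prdm1 added. The share over all 962 shared regions was taken only for ranks by -log10 q (24.8%). The counts by fold and by pileup thus cannot be set against such a share. The Irf4 score difference was -0.0069 by fold and -0.17 to 1.15 with 1 library left out. The replicate block changed no call of the 4 shared regions. The 3 libraries per genotype and the cutoff of -log10 q of 10 limit what can be seen: weaker binding is not in the lists.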
